A study of Mus musculus with 12 samples.

Results

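The 55 genes described here encode the machinery that licenses replication origins and carries the replication fork, from the origin recognition complex and the MCM2-7 helicase to the replicative polymerases, the sliding clamp with its loader, and the enzymes that finish Okazaki fragments. They were taken by gene name from a written list of the pathway, drawn up with earlier results of these data known, and all 55 were found among the 32288 genes and transgenes of the deposited count table. Their transcripts were counted by bulk RNA-seq of membrane GFP-positive (mGFP+) osteoblasts sorted from the metaphysis of mouse long bones, in 12 libraries of 4 groups. The comparisons ask whether these genes differ between growing and adult bone, after induction of *c-Myc*, and when a mutant p53 is added to *c-Myc*.

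All mice carried *Osx-CreERT2*, in which CreERT2 is expressed from the *Osx* (*Sp7*) locus, and the *mTmG* reporter, which switches from tdTomato to mGFP after recombination, and all received tamoxifen. Juvenile *Osx*+ osteoblasts were taken at 3 and adult ones at 8 weeks of age and gave 4 libraries each, with the bones of 2 male mice pooled per library, harvested 2 days after tamoxifen on 3 consecutive days. *c-Myc* osteoblasts carried *LSL-tTA* and *Col1a1::TetO–c-Myc* on top of these alleles, *c-Myc* + *R172H* osteoblasts also had *Trp53-LSL-R172H*, and each of these groups gave 2 libraries, taken 7 days after 2 consecutive days of tamoxifen. The cell preparation methods name mice of both sexes for these 2 groups, whereas another part of the methods says that male mice were used for RNA-seq. In this system Cre activates the tTA transactivator only in recombined *Osx*-lineage cells, tTA drives *c-Myc* from the TetO promoter in the absence of tetracycline, and the *R172H* allele becomes expressed in the same cells, which is a structural, dominant-negative p53 mutation. The induced mice are labelled 3 weeks, but the dissection protocol calls them 5 weeks old and trims the diaphysis at 5 mm instead of 2 mm from the growth plate. Per the paper's methods, tet-OFF mice or pregnant females also drank doxycycline or tetracycline until some time before analysis. In every comparison with juvenile osteoblasts the transgenes, this treatment, the age at dissection, the trimmed length, and the days of and interval after tamoxifen cannot be told apart. By the cell preparation methods, the sex of the mice also differed between these groups. How many mice made up each induced library is not given in the sources used here, so the p-values measure the spread between these libraries.

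DNA replication starts from origins that were marked beforehand. In late mitosis and G1, ORC together with CDC6 and CDT1 loads the MCM2-7 ring onto DNA as an inactive double hexamer, and geminin blocks CDT1 so that an origin is not loaded again in the same cycle. In S phase the kinase CDC7-DBF4 and the cyclin-dependent kinases turn the ring into the active CMG helicase (CDC45, MCM2-7, GINS), polymerase alpha-primase makes primers, and polymerases epsilon and delta extend them with the help of PCNA. Many of these genes are textbook targets of E2F factors and are transcribed at a low level in resting cells. In the metaphysis, osteoblasts beside the growth plate proliferate during longitudinal growth. In a bulk sample, fewer cycling cells and less RNA per cycling cell cannot be told apart.

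The libraries held between 9066154 and 15684412 counts. Levels below are normalised counts (CPM, scaled by library size and TMM factor), and a count of 3 in a library corresponded to 0.137 to 0.417 CPM. Reads assigned to *Myc* stood at 39.8 to 52.2 CPM in the 8 control libraries, at 624 and 658 CPM in the *c-Myc* libraries and at 639 and 748 CPM in the *c-Myc* + *R172H* libraries, while a point mutation such as *R172H* leaves gene counts with no mark of its own. *Xist*, the X-inactivation transcript, was at 234 and 212 CPM in replicate 2 of the *c-Myc* and of the *c-Myc* + *R172H* group and at no more than 1.24 CPM in every other library. The osteoblast markers *Sp7* and *Runx2* were present in every library, the 7 erythroid and 5 endothelial markers summed to at most 0.681 and 1.24 CPM, and the 8 chondrocyte markers, led by *Col2a1*, summed to 32966 to 119960 CPM in adult, 8383 to 24799 CPM in juvenile, 340 and 531 CPM in *c-Myc* and 159.6 and 162 CPM in *c-Myc* + *R172H* libraries. *Col1a1* took 33.4% to 39.1% of the counts in juvenile but 5.61% to 11.3% in induced libraries, and *Gm26917* 7.19% to 8.46% against 26.5% to 29.4%.

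Promoter sequences are shown for the licensing, helicase and clamp loader members with the largest called increase in *c-Myc* osteoblasts among those with a reference entry, as the regulatory DNA next to the genes that moved most, and for *Pold4*, which moved the other way and was chosen for printing after its values were seen. Each runs 5′ to 3′ on the gene's own strand from 250 bases before to 50 bases after the start given by RefSeq (GRCm38.p6). Capitals mark the E2F consensus words TTTCCCGC, TTTGGCGC, TTTCGCGC and TTTGCCGC on either strand.
*Mcm5*, chr8:75109259-75109558, plus strand: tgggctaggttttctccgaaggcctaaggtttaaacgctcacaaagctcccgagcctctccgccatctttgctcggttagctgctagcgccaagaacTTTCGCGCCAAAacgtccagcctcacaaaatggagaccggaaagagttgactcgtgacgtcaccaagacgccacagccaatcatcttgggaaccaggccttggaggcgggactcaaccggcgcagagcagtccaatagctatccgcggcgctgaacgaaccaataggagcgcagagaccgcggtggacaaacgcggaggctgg
*Cdc6*, chr11:98907901-98908200, plus strand: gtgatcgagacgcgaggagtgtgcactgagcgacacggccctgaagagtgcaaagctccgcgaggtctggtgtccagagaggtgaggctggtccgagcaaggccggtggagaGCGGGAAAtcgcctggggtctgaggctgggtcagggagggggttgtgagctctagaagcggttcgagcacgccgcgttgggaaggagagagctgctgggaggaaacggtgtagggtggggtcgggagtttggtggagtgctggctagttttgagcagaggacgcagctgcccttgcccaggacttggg
*Rfc5*, chr5:117388974-117389273, minus strand: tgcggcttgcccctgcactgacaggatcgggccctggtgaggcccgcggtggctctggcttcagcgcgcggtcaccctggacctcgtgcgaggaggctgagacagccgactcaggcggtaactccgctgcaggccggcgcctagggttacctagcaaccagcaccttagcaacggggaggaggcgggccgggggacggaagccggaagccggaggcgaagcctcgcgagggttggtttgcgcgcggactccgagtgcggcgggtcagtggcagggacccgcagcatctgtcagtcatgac
*Pold4*, chr19:4231643-4231942, plus strand: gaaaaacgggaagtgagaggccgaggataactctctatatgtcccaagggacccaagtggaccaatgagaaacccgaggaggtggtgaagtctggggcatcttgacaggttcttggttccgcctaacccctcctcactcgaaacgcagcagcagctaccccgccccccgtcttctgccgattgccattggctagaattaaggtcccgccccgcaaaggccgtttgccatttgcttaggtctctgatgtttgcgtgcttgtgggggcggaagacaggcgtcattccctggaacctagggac
The *Mcm5* window held a pair of overlapping words, 1 on each strand, that begin at positions -153 and -149 from the gene start. In *Cdc6* 1 word, read on the opposite strand, began at position -138. The GENCODE gene model of *Cdc6* begins at chr11:98907801, before this window, so the whole *Cdc6* window lies inside that model. Neither the *Rfc5* nor the *Pold4* window contained one of these letter strings. Of the 55 members, 46 had a RefSeq window, and the other 9 (*Prim2*, *Mcm4*, *Gins2*, *Tipin*, *Pole*, *Gmnn*, *Gins1*, *Gins4* and *Rfc2*) are named only. Of the 46, 17 carried at least 1 E2F word (37.0% of genes, against 2.6% of 27025 genes with a window, and 30.9% of 55 member windows against 2.26% of 32851 windows of the same 300 bases). Those 17 included *Mcm3*, *Mcm5*, *Mcm6* and *Mcm7* (2, 2, 3 and 2 matches), *Orc1*, *Orc3*, *Cdc6*, *Cdt1*, *Pola1*, *Pold1*, *Pold3* and *Pole2*. The others were *Rfc3* (2 matches), *Gins3*, *Lig1*, *Mcm8* and *Mcmbp*. The E-box CACGTG, the textbook MYC-MAX binding word and its own reverse complement, was in 8 of 46 (17.4% against 8.09% of genes), CCAAT on either strand in 26 (56.5% against 41.1%) and the GC box GGGCGG on either strand in 35 (76.1% against 38.2%). The 27025 genes include genes not tested here, and most tested genes carried the GC box as well. Of tested genes with a window, 6931 had the GC box and 2877 did not. For the E-box these counts were 1176 and 8632, for CCAAT 4233 and 5575, and for an E2F word 470 and 9338. A word match is a description of letters in this window, not of a bound site.

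**Figure D1:**
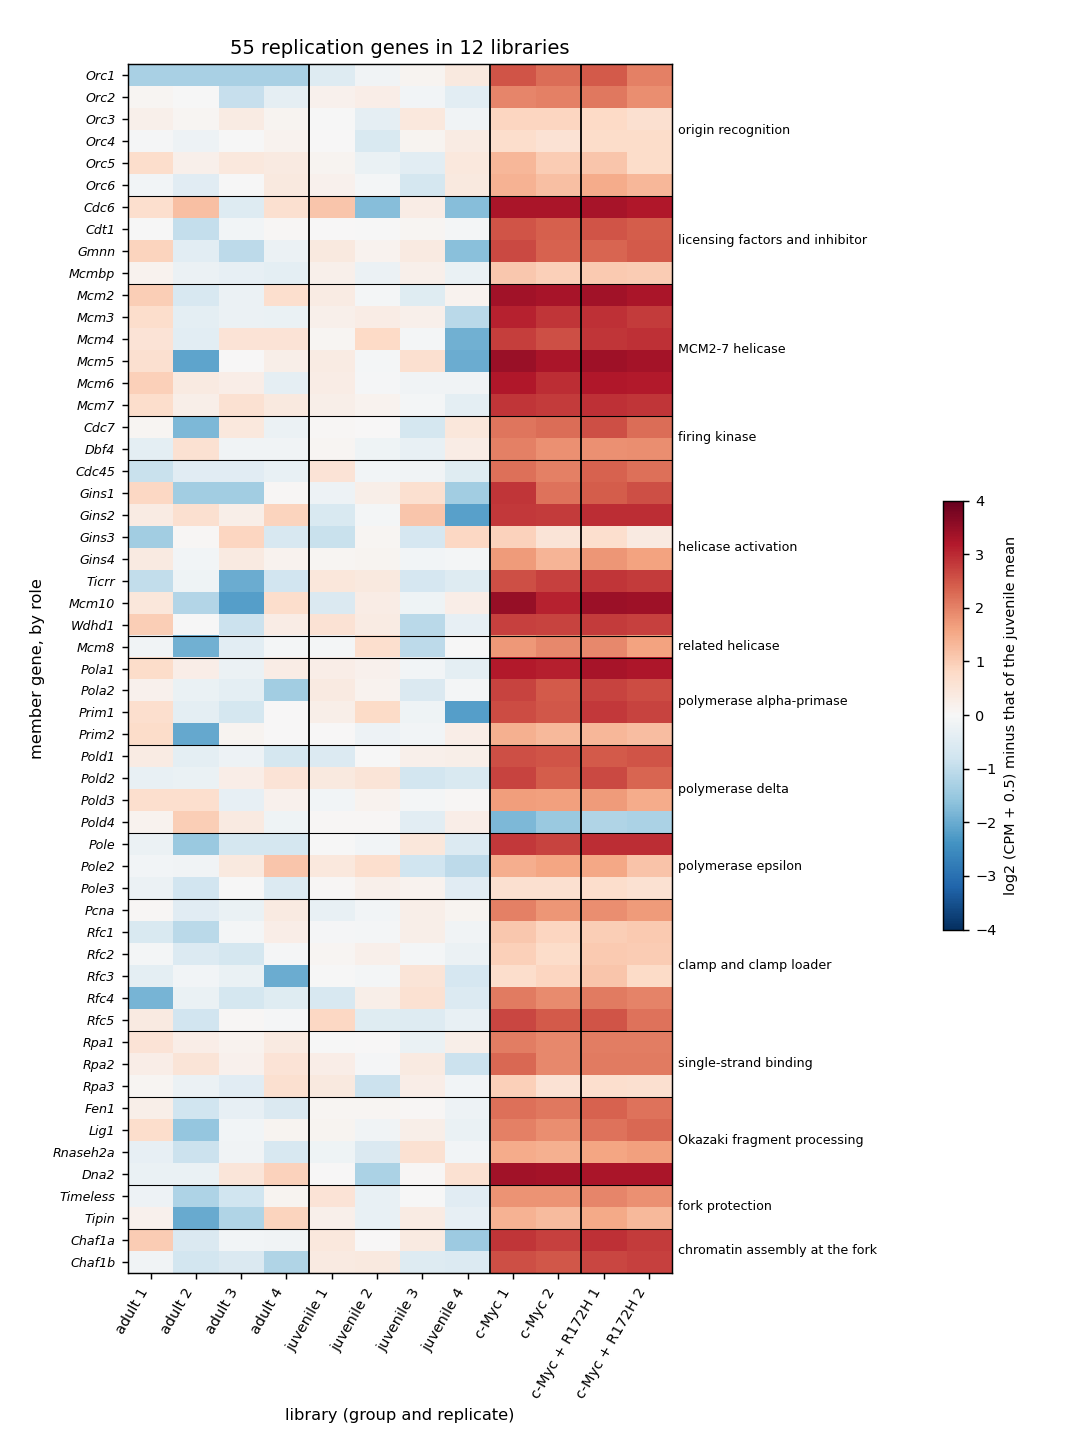
Heat map of the 55 members (rows, grouped by role) in the 12 libraries (columns), coloured by log2 of CPM + 0.5 minus the same value of the juvenile mean, from -4 (blue) to 4 (red). Adult and juvenile columns mix red and blue, whereas the 4 induced columns are red for every member other than *Pold4*, which is blue, with *Gins3*, *Pole3*, *Orc4* and *Rpa3* among the palest.

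Between juvenile and adult *Osx*+ osteoblasts no member passed the test. Of the 55 genes, 53 had enough counts to be tested, 27 with a higher and 26 with a lower point estimate at 3 weeks, and their log2 fold changes had a median of 0.01, against 0.00 over all 11345 genes tested (edgeR quasi-likelihood F test, Benjamini-Hochberg adjustment over all genes tested, threshold 0.05). In the same test 1.89% of all genes were called higher and 3.23% lower in juvenile cells, and at an unadjusted p below 0.05 stood 1 of 53 members (1.89%), against 19.7% of all genes. The median SE of the members was 0.39 log2 units, against 0.25 over all genes tested, and *Cdc6* had the widest at 0.98, so that differences of 2-fold were within the error for the low members. DESeq2 called 1 member, *Orc1*, higher and none lower.

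*Mcm7*, a core subunit of the helicase ring, was the member at an unadjusted p below 0.05. Its level was 16.3, 15.4, 13.2 and 10.6 CPM in the 4 juvenile libraries and 22.9, 16.4, 21.6 and 18.2 CPM in the 4 adult ones, with every juvenile library below every adult one (log2 fold change -0.52, SE 0.20, adjusted p = 0.148, edgeR), and across the alternatives the adjusted p ranged from 0.0402 (all 12 libraries in the fit) to 0.367 (without adult replicate 1). The exons of *Mcm7* overlap those of *Ap4m1* and *Cops6* on the opposite strand. These overlaps sum to 8.7% of the *Mcm7* exon length, with any bases under both genes counted for each. The strand setting of the counting is not given. All 6 MCM2-7 members had point estimates below 0, from -0.52 to -0.02, and the other 5 had unadjusted p above 0.05.

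*Orc1*, the largest ORC subunit, had 4, 6, 6 and 9 counts in the juvenile libraries and 0 counts in each of the 4 adult libraries. The juvenile mean of 0.734 CPM was 2.17 times the level of 3 counts per adult library, a ratio that carries no error of the juvenile counts. *Orc1* fell below the expression filter of the age fit, so it is not among the 53. Without the filter its adjusted p was 0.106, with DESeq2 0.0342 and with all 12 libraries in the edgeR fit 0.00509, each resting on 25 counts in all and on exons that share 10.8% of their length with *Gm12743* on the other strand. *Gins1*, the other member under the filter, had 7, 10, 11 and 0 counts in juvenile and 18, 0, 0 and 8 counts in adult libraries, which overlap.

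Single libraries set much of the spread. Juvenile replicate 4 was the lowest juvenile library for 27 of 54 untied members (50.0%, against 31.0% of all genes tested) and had 0 counts of *Cdc6*, *Gmnn*, *Gins1*, *Gins2* and *Prim1*. *Mcm5*, a ring subunit at the MCM2-MCM5 gate, stood at 14.3, 10.8, 17.9 and 2.48 CPM in juvenile and 18.1, 2.26, 11.6 and 13.6 CPM in adult libraries, so that juvenile replicate 4 and adult replicate 2 were both far below the others and the groups overlapped. Adult replicate 1 was the highest adult library for 24 of 54 members (44.4%, against 25.8%), and adult replicate 2 the lowest for 26 of 53 (49.1%, against 29.0%). The same juvenile replicate 4 was lowest in the chondrocyte markers of its group (8383 CPM summed) and adult replicate 1 highest (119960 CPM), with adult replicate 2 lowest in its group (32966 CPM), and the 4 proliferation markers summed to 104 CPM in adult replicate 1 against 53.6 to 61.6 CPM in the other adult libraries and 49.0 to 82.6 CPM in juvenile ones. Of the marker lists, 3 of 8 osteoblast markers were called higher and 1 of 8 chondrocyte (*Col2a1*) and the single tested leukocyte marker (*Lyz2*, 0 to 0.974 CPM in juvenile and 3.85 to 9.26 CPM in adult libraries) lower in juvenile cells, and 0 of the 11 tested osteoclast, marrow stroma and proliferation markers passed by edgeR, with 2 at an unadjusted p below 0.05. The part of growth plate cells or of cycling cells in these differences was not tested. Leaving out each of the 8 libraries in turn called 0 members in either direction every time, with a median between -0.14 and 0.24.

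**Figure D2:**
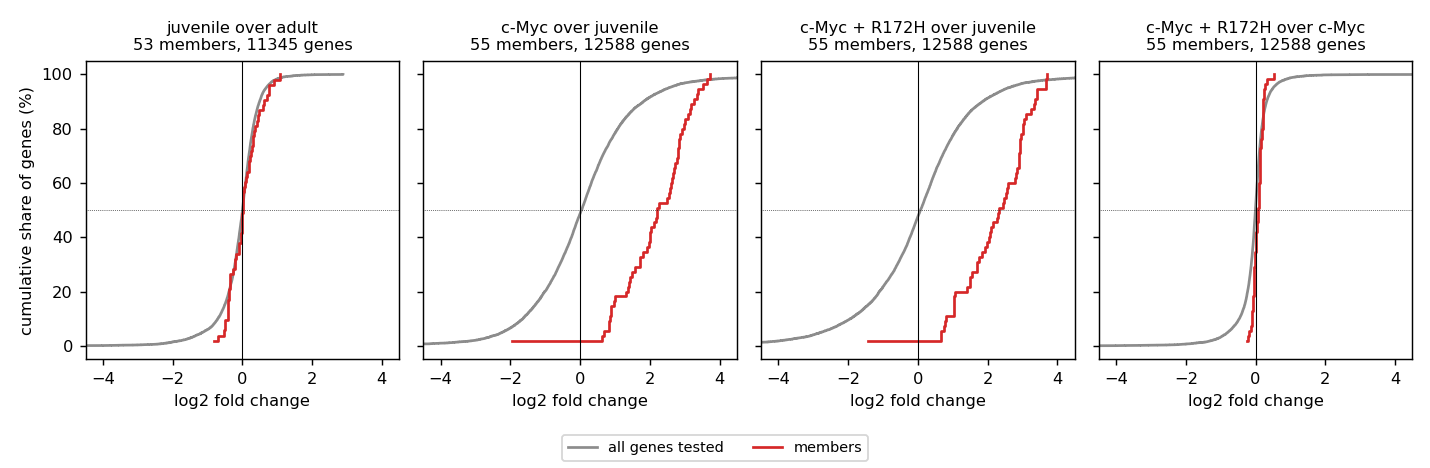
Cumulative share of genes (y axis, %) up to each log2 fold change (x axis) for the members (red) and all genes tested (grey) in 4 comparisons. The curves overlie for juvenile over adult (medians 0.01 and 0.00), stand apart by 2.16 and 2.25 log2 units at the median for the induced groups over juvenile, and nearly overlie again for *c-Myc* + *R172H* over *c-Myc* (0.08 and 0.00).

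In *c-Myc* osteoblasts nearly the whole set was higher than in juvenile osteoblasts. Of 55 members tested, 51 were called higher, 46 of them at least 2-fold, 1 was called lower (*Pold4*), and 3 were not called (*Orc4*, *Gins3* and *Rpa3*). The background of this comparison is broad, since 28.4% of the 12588 genes tested were called higher, 18.4% higher and at least 2-fold, and 25% lower. For 53 members the lowest *c-Myc* library lay above the highest juvenile library, as it did for 35.7% of all genes. The median log2 fold change of the members was 2.20 (4.58-fold), against 0.04 over all genes. Summed over the 55 genes, the juvenile libraries held 422, 388, 406 and 323 CPM. The adult ones held 461, 298, 357 and 405 CPM and the *c-Myc* ones 1880 and 1699 CPM.

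Several other quantities moved with the same contrast. All 8 osteoblast markers (median log2 fold change -1.98) and all 8 chondrocyte markers (-5.51) were called lower, and the 4 proliferation markers including *Mki67* were called higher (2.08). Of the other lists, 3 of 4 marrow stroma markers and 1 of 3 tested osteoclast markers were called lower, and 1 of 2 tested leukocyte markers (*Lyz2*, at 6.49 and 5.84 CPM in *c-Myc* libraries) was called higher. The proliferation sum rose from 49.0 to 82.6 CPM in juvenile libraries to 302 and 289 CPM in *c-Myc* libraries. Their part in the members' change was not tested. Scaled by library totals alone, the median of all genes moved to 0.87, with 6803 genes called higher and 1115 lower in place of 3577 and 3149, and the members' median to 3.04, which lies 2.16 above that of all genes in both scalings. Each member's log2 fold change was then higher by 0.79 to 0.87 than the TMM value given for it in the next paragraphs. Without *c-Myc* replicate 2, the library with *Xist*, the members' median was 2.34, against 0.01 over all genes. Without juvenile replicate 4, 53 members were called higher (29.9% of all genes), with a median of 2.13.

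**Figure D3:**
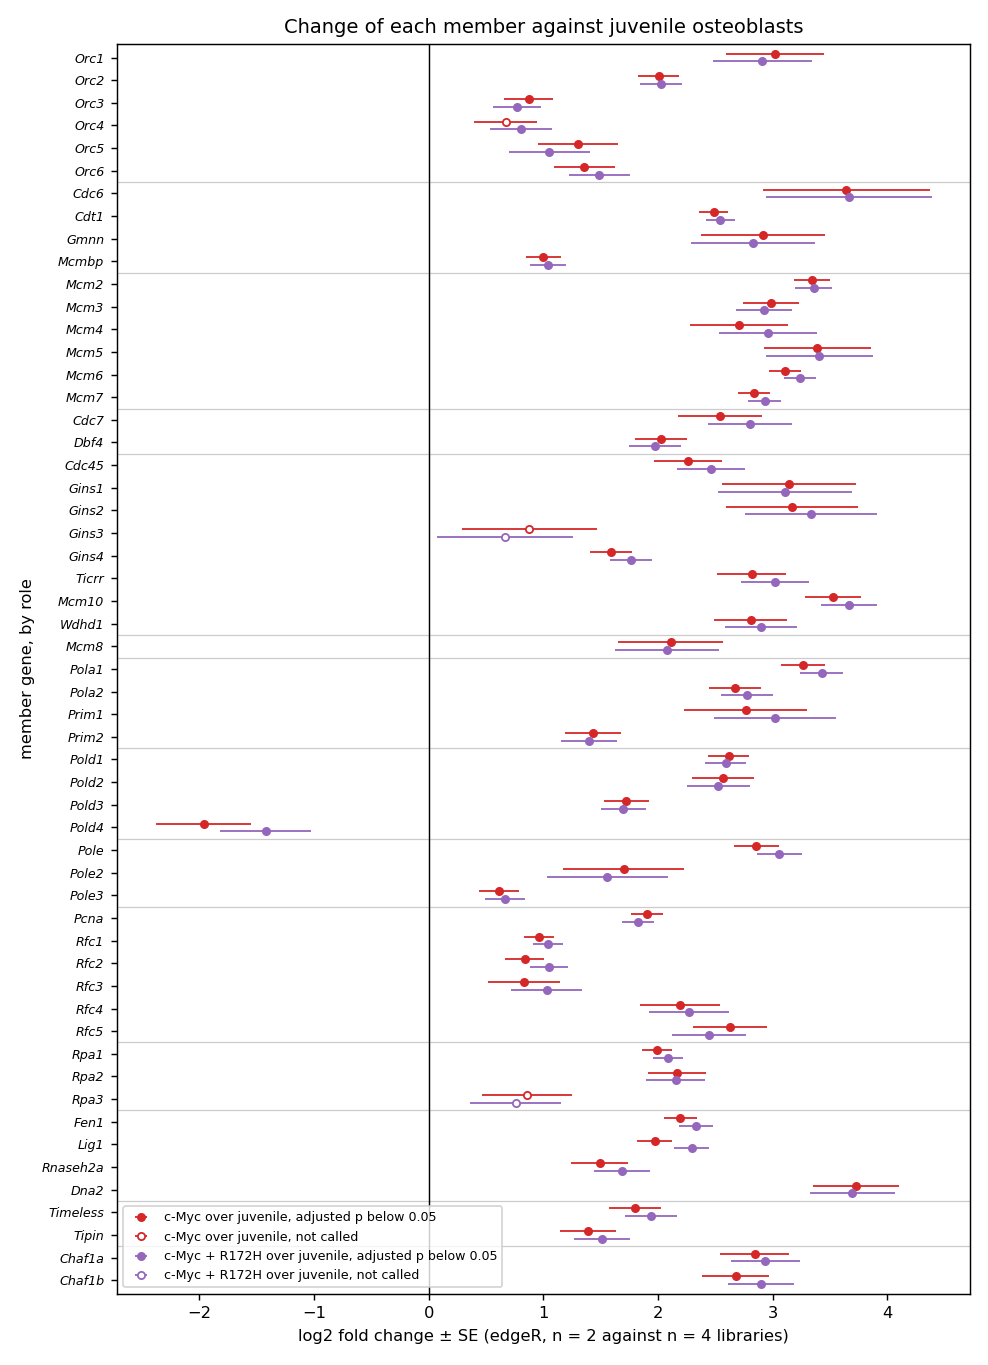
Log2 fold change with its SE (x axis) of each member (y axis, by role) in *c-Myc* (red) and in *c-Myc* + *R172H* (purple) osteoblasts over juvenile osteoblasts, with open circles for members not called. In each row the red and purple points lie close together, *Cdc6*, *Mcm10* and *Dna2* lie beyond 3.5, and *Pold4* alone lies left of 0.

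Of the 6 origin recognition genes, 5 rose, and *Orc1* and *Orc2* had the largest values. *Orc1* stood at 0.365, 0.619, 0.835 and 1.12 CPM in the juvenile libraries and at 6.58 and 5.27 CPM in the *c-Myc* ones, above a highest control value of 1.12 CPM (log2 fold change 3.02, SE 0.43, adjusted p = 7.56e-05). *Orc4*, a core ATPase subunit of ORC, was at 5.94, 3.71, 6.4 and 7.58 CPM in juvenile, 5.67, 5.08, 5.82 and 6.61 CPM in adult and 9.96 and 9.07 CPM in *c-Myc* libraries. The *c-Myc* values of *Orc4* were above all 8 controls, yet the gene fell short of the threshold (log2 fold change 0.67, SE 0.27, adjusted p = 0.0552) and was called in 6 of 17 alternatives. The other members gave 2.01 for *Orc2*, 0.87 for *Orc3*, 1.30 for *Orc5* and 1.36 for *Orc6*. *Orc2* shares 29.8% of its exon length with *Nif3l1* on the opposite strand, so its count is uncertain.

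The licensing factors rose together with their inhibitor. *Cdc6*, the ATPase that joins ORC to load the helicase, had 3.01, 0, 1.53 and 0 CPM in juvenile libraries, 2.13, 3.27, 0.647 and 2.03 CPM in adult and 15.3 and 15.2 CPM in *c-Myc* libraries. A pair of juvenile libraries was at 0, and the edgeR value (log2 fold change 3.64, SE 0.73, adjusted p = 0.00144) carried the largest SE of the set, while DESeq2 gave an adjusted p of 0.0845. Without juvenile replicate 1 the log2 fold change of *Cdc6* was 5.04. *Cdt1* rose by 2.49 and *Gmnn*, which encodes geminin, by 2.92 log2 units. *Mcmbp*, whose product binds MCM subunits outside the ring, changed least of the 4, from 28.2, 20.4, 28.4 and 20.4 CPM in juvenile and 26.8, 20.7, 19.1 and 18.4 CPM in adult libraries to 51.7 and 47.3 CPM in *c-Myc* libraries (log2 fold change 1.00, SE 0.15, adjusted p = 0.000148).

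The 6 subunits of the MCM2-7 ring rose by between 2.71 and 3.39 log2 units. *Mcm5* was highest among them, at 130.2 and 113 CPM in *c-Myc* libraries against the juvenile values given above (log2 fold change 3.39, SE 0.47, adjusted p = 0.000617). *Mcm4* showed the smallest change, from 7.85, 13.4, 7.09 and 1.61 CPM in juvenile and 11.1, 5.42, 11.1 and 11.2 CPM in adult libraries to 54.1 and 47.7 CPM (log2 fold change 2.71, SE 0.43, adjusted p = 0.000478). Every control library of both genes lay below the induced ones. *Mcm2*, *Mcm3*, *Mcm6* and *Mcm7* gave 3.34, 2.99, 3.11 and 2.84. *Mcm8*, a relative of the ring subunits that acts with MCM9 in homologous recombination, was at 1.28, 2.48, 0.417 and 1.37 CPM in juvenile, 1.22, 0, 0.906 and 1.28 CPM in adult and 5.8 and 6.69 CPM in *c-Myc* libraries (log2 fold change 2.11, SE 0.45, adjusted p = 0.00175).

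Genes that switch the loaded ring on also rose, with 1 exception. *Cdc7*, the catalytic subunit of the firing kinase, went from 1.28, 1.24, 0.556 and 1.86 CPM in juvenile and 1.32, 0, 1.81 and 0.96 CPM in adult libraries to 7.17 and 7.66 CPM in *c-Myc* libraries (log2 fold change 2.54, SE 0.37, adjusted p = 8.73e-05). Its regulatory partner *Dbf4* went from 4.2, 3.41, 3.06 and 4.97 CPM in juvenile and 2.84, 6.21, 3.49 and 3.52 CPM in adult to 17.3 and 15.2 CPM in *c-Myc* libraries (log2 fold change 2.03, SE 0.23, adjusted p = 1.06e-05). *Mcm10*, needed for the CMG helicase to open the origin, was at 1.46, 3.1, 2.09 and 2.98 CPM in juvenile and 3.44, 0.79, 0.129 and 4.26 CPM in adult libraries, where it ranged widely, and at 31.8 and 24.3 CPM in *c-Myc* libraries (log2 fold change 3.53, SE 0.24, adjusted p = 1.87e-07). *Cdc45* (2.26), *Ticrr* (2.82), which with TOPBP1 and the cyclin-dependent kinases recruits CDC45, and *Wdhd1* (2.81), which ties polymerase alpha to the helicase, all rose.

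The 4 GINS subunits form 1 complex but their transcripts differed in size of change. *Gins1* and *Gins2* had log2 fold changes of 3.14 and 3.17, and *Gins4* of 1.59. *Gins3* stood at 0.639, 1.75, 0.835 and 3.23 CPM in juvenile, 0.304, 1.69, 3.36 and 0.853 CPM in adult and 3.47 and 2.5 CPM in *c-Myc* libraries, so that the *c-Myc* range overlapped both control ranges, and the gene did not pass (log2 fold change 0.88, SE 0.59, adjusted p = 0.231). With an SE this wide the data place little limit on *Gins3*, and 3 of 16 alternatives called it. *Gins2* shares 67.3% of its exon length with *Gse1* on the opposite strand and is uncertain for that reason. Without juvenile replicate 3 its log2 fold change was 4.02.

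All 4 genes of polymerase alpha-primase, which lays down the RNA-DNA primers, rose. *Pola1*, the catalytic polymerase subunit, went from 4.2, 3.92, 3.2 and 2.48 CPM in juvenile and 6.08, 4.29, 2.85 and 4.37 CPM in adult libraries to 35 and 33.6 CPM in *c-Myc* libraries (log2 fold change 3.27, SE 0.19, adjusted p = 5.24e-08). *Prim2*, the large primase subunit, went from 3.93, 3.3, 3.62 and 4.84 CPM in juvenile and 6.89, 0.564, 4.27 and 3.94 CPM in adult to 11.3 and 10.3 CPM in *c-Myc* libraries (log2 fold change 1.44, SE 0.24, adjusted p = 0.000315). This was the smallest change of the 4, beside 2.67 for *Pola2* and 2.77 for *Prim1*, the catalytic primase.

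Polymerase delta, which extends the lagging strand, was the complex whose subunits parted. *Pold1*, the catalytic subunit, rose from 5.85, 8.77, 10.2 and 10.4 CPM in juvenile and 11.2, 6.66, 7.5 and 5.22 CPM in adult libraries to 55.5 and 52.7 CPM in *c-Myc* libraries (log2 fold change 2.62, SE 0.18, adjusted p = 1.67e-07), and *Pold2* and *Pold3* by 2.57 and 1.73 log2 units. *Pold4*, the smallest subunit, was instead at 5.48, 5.47, 3.89 and 6.46 CPM in juvenile and 5.87, 10.9, 6.99 and 4.69 CPM in adult libraries and at 1.19 and 1.59 CPM in *c-Myc* libraries, below all 8 controls. This was the single called decrease of the set (log2 fold change -1.96, SE 0.42, adjusted p = 0.0016), and it was called lower in 17 of 17 alternatives with adjusted p from 1.35e-05 to 0.0382. The counts behind it are small, 60, 53, 28 and 52 in juvenile and 26 and 28 in *c-Myc* libraries, and 24.6% of its exon length is shared with *AC109138.7* on the same strand. *Pold4* (chr19:4231899-4233634, plus strand, GRCm38) encodes a protein known to be degraded in S phase, a step that gene counts do not show.

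The 3 member subunits of polymerase epsilon, which extends the leading strand, rose by unequal amounts. *Pole*, its catalytic subunit, was at 5.94, 5.57, 8.48 and 3.98 CPM in juvenile, 5.06, 1.81, 3.49 and 3.52 CPM in adult and 46 and 41.7 CPM in *c-Myc* libraries (log2 fold change 2.86, SE 0.20, adjusted p = 1.9e-07). *Pole3*, a histone-fold subunit that is also part of chromatin-remodelling complexes, was already at 20.9, 23.1, 22.3 and 14.5 CPM in juvenile and 17, 11.7, 20.1 and 13.8 CPM in adult libraries and reached 31.5 and 31.5 CPM in *c-Myc* ones (log2 fold change 0.61, SE 0.17, adjusted p = 0.00955). This smallest called increase of the set was lost when either *c-Myc* library was left out (adjusted p up to 0.0605). *Pole2* gave 1.70 and was likewise lost without either *c-Myc* library (up to 0.0878). The fourth subunit, *Pole4*, is not a member. It was on the list of other pathway genes and was called higher (0.90, adjusted p = 0.00594).

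*Pcna*, the sliding clamp, rose by 1.91 log2 units, and all 5 clamp loader subunits were called higher. *Rfc5* changed most, from 7.76, 2.89, 2.78 and 3.35 CPM in juvenile and 5.47, 2.26, 4.4 and 4.05 CPM in adult libraries to 29.2 and 25.1 CPM in *c-Myc* libraries (log2 fold change 2.63, SE 0.32, adjusted p = 2.23e-05). *Rfc4* followed at 2.19. *Rfc1*, the large subunit that is particular to the replication clamp loader, and *Rfc2* gave 0.96 and 0.84. *Rfc3* was at 4.75, 4.54, 7.09 and 2.86 CPM in juvenile, 3.54, 4.4, 3.88 and 0.853 CPM in adult and 8.08 and 9.19 CPM in *c-Myc* libraries (log2 fold change 0.83, SE 0.31, adjusted p = 0.0414), a call that 8 of 17 alternatives kept. *Rfc2*, *Rfc4* and *Rfc5* share 15.1%, 12.7% and 10.7% of their exon length with *Lat2*, *Eif4a2* and *Wsb2* on the opposite strand.

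Of the genes for replication protein A (RPA), the heterotrimer that coats single-stranded DNA, *Rpa1* and *Rpa2* rose by 1.99 and 2.17. *Rpa2* went from 8.59, 6.71, 9.04 and 3.6 CPM in juvenile and 8.51, 10.2, 8.02 and 10.3 CPM in adult libraries to 36.1 and 27.8 CPM in *c-Myc* libraries (log2 fold change 2.17, SE 0.26, adjusted p = 1.57e-05). *Rpa3*, the smallest subunit, was at 4.11, 1.44, 3.76 and 2.73 CPM in juvenile, 3.24, 2.48, 2.07 and 5.01 CPM in adult and 6.3 and 4.76 CPM in *c-Myc* libraries (log2 fold change 0.86, SE 0.39, adjusted p = 0.0861). Its *c-Myc* values lay above the juvenile ones but overlapped the adult ones, and 3 of 17 alternatives called it.

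The 4 genes of Okazaki fragment processing rose, and *Dna2*, a nuclease-helicase that trims long flaps and resects DNA at stalled forks, had the largest point estimate among the 55 members with all libraries in the fit. *Cdc6* exceeded it without juvenile replicate 1, *Mcm10* without replicate 2 and *Gins2* without replicate 3. *Dna2* went from 1.46, 0.31, 1.53 and 2.48 CPM in juvenile and 1.11, 1.13, 2.2 and 3.2 CPM in adult libraries to 19.3 and 18.9 CPM in *c-Myc* libraries (log2 fold change 3.73, SE 0.37, adjusted p = 3.95e-06, 13.2-fold). *Rnaseh2a*, the catalytic subunit of RNase H2, changed least of these 4, from 8.31, 6.19, 14.7 and 8.7 CPM in juvenile and 7.49, 4.97, 8.54 and 5.86 CPM in adult to 27.2 and 26.3 CPM in *c-Myc* libraries (log2 fold change 1.49, SE 0.25, adjusted p = 0.000246). The flap endonuclease *Fen1* gave 2.20 and the ligase *Lig1* 1.97. The overlaps of *Fen1* with *Tmem258* and *Gm10143* on the opposite strand sum to 84.2% of its exon length, the largest such sum of the set. Any bases under both genes were counted for each.

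Both fork protection and both chromatin assembly genes rose. *Timeless* went from 15.9, 8.57, 10.6 and 7.58 CPM in juvenile and 9.11, 4.29, 5.95 and 11.5 CPM in adult libraries to 38.2 and 37.9 CPM in *c-Myc* libraries (log2 fold change 1.80, SE 0.23, adjusted p = 2.68e-05). *Tipin*, its obligate partner, went from 5.94, 4.02, 6.54 and 3.98 CPM in juvenile and 5.77, 0.903, 1.94 and 10.0 CPM in adult to 14.2 and 13 CPM in *c-Myc* libraries (log2 fold change 1.39, SE 0.25, adjusted p = 0.000414). *Chaf1a*, the large subunit of the CAF-1 histone chaperone that works behind the fork, went from 9.96, 7.53, 9.6 and 2.36 CPM in juvenile and 15.3, 4.74, 6.86 and 6.61 CPM in adult to 56.4 and 52.3 CPM in *c-Myc* libraries (log2 fold change 2.85, SE 0.30, adjusted p = 6.28e-06). *Chaf1b* went from 3.2, 3.3, 1.53 and 1.49 CPM in juvenile and 2.13, 1.24, 1.42 and 0.746 CPM in adult to 16.5 and 15.5 CPM in *c-Myc* libraries (log2 fold change 2.68, SE 0.29, adjusted p = 8.02e-06). The exons of *Chaf1a* share 52.5% of their length with *Ubxn6* on the opposite strand.

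**Figure D4:**
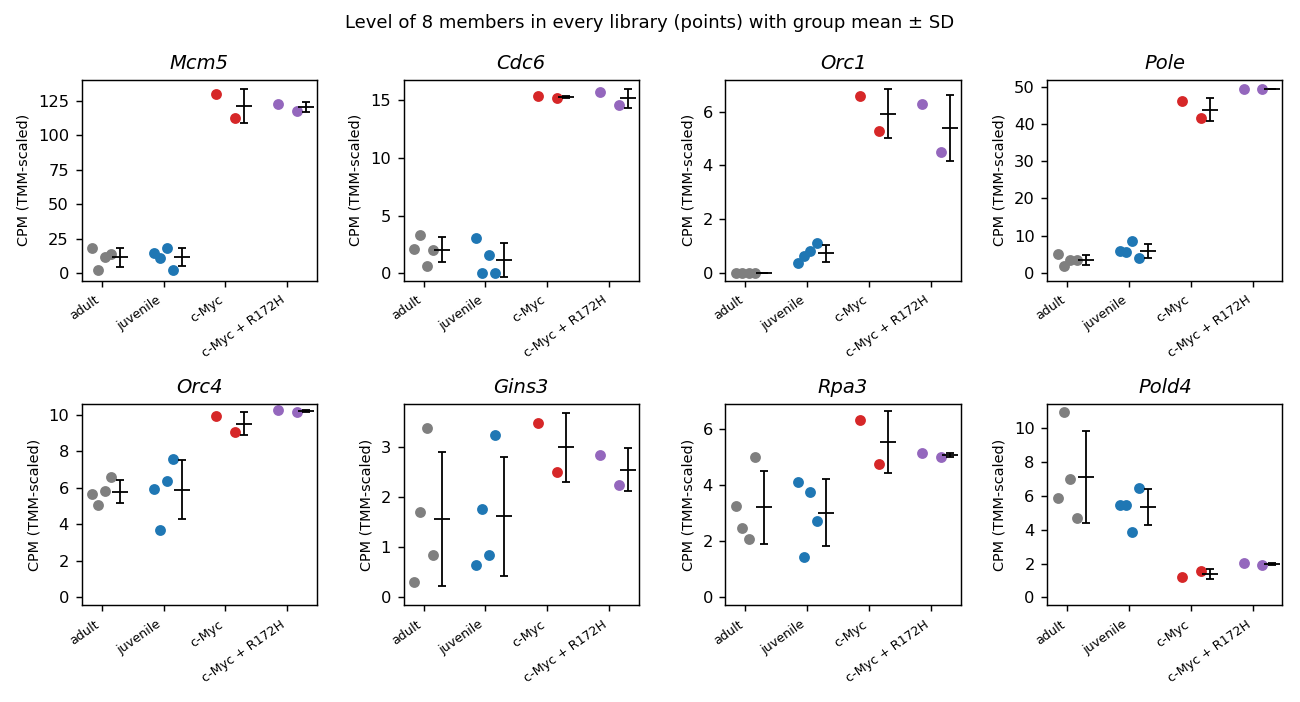
CPM (TMM-scaled, y axis from 0) of 8 members in every library, by group (x axis), with the group mean and SD beside the points (n = 4, 4, 2 and 2). *Mcm5*, *Cdc6*, *Orc1* and *Pole* show induced libraries far above all controls, *Orc4* a small gap, *Gins3* and *Rpa3* ranges that meet the controls, and *Pold4* induced libraries below all controls.

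The log2 fold changes were also set beside the promoter words, as a description with no test. The 17 members with a word had a median log2 fold change of 2.48 in *c-Myc* over juvenile osteoblasts (range 0.83 to 3.64) and the 29 without one 2.19 (range -1.96 to 3.73), against 0.43 for the 470 and 0.04 for the 9338 tested genes with and without a word. Members with the E-box CACGTG (8) had a median of 2.05 and those without (38) of 2.37.

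Set per kilobase of exon (CPM divided by the length of the merged exons), the order of the members differed between groups. In juvenile osteoblasts the highest per-length levels were those of *Pole3* (9.9), *Pcna* (8.58), *Pold2* (5.68) and *Gins4* (4.99 CPM per kb), and in *c-Myc* osteoblasts those of *Pold2* (35), *Pcna* (32.5), *Mcm5* (30.4) and *Mcm7* (22.9 CPM per kb). The 6 subunits of the MCM2-7 ring, which enter it in equal numbers, lay within 2.26-fold of each other in adult, 2.02-fold in juvenile, 2.15-fold in *c-Myc* and 1.89-fold in *c-Myc* + *R172H* means. The 4 subunits of polymerase delta spanned 4.43-fold and 5.39-fold in adult and juvenile means but 29.3-fold and 19.7-fold in the induced groups, as *Pold4* went from 4.58 to 1.19 while *Pold2* went from 5.68 to 35 CPM per kb. In RPA the span widened from 1.22-fold in juvenile to 2.37-fold in *c-Myc* means with *Rpa3* lowest, and over the 3 member subunits of polymerase epsilon it went from 18.5-fold, between *Pole3* and *Pole*, to 8.25-fold, between *Pole3* and *Pole2*.

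**Figure D5:**
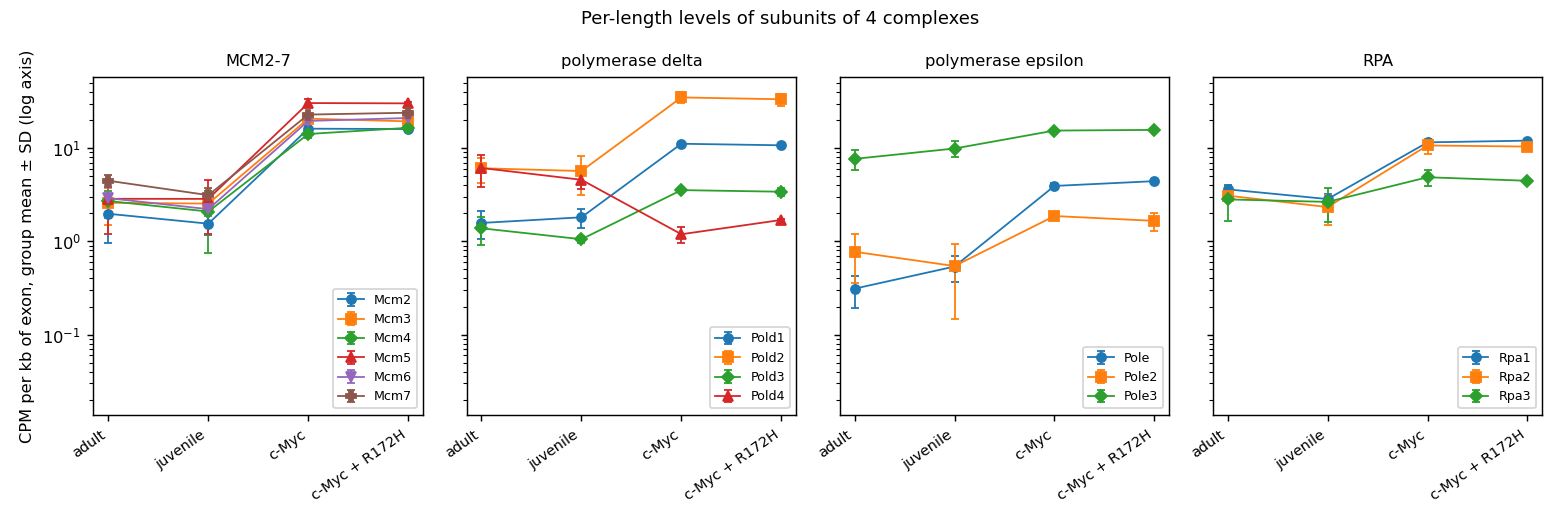
Per-length level (CPM per kb of exon, group mean with SD, log axis) of the subunits of MCM2-7, polymerase delta, polymerase epsilon and RPA in the 4 groups (n = 4, 4, 2 and 2; lines join the means of 1 gene). The MCM lines stay within about 2-fold of each other in every group, whereas the *Pold4* line crosses those of *Pold1* and *Pold3* on its way down.

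*c-Myc* + *R172H* osteoblasts likewise had nearly the whole set above juvenile osteoblasts. Of 55 members, 52 were called higher (30.4% of all genes), 49 of them at least 2-fold (19.6%), 1 lower (*Pold4*; 26.3% of all genes) and 2 were not called (*Gins3* and *Rpa3*), with 53 members above the juvenile range in both libraries (36.6% of all genes). The median log2 fold change was 2.33 (5.03-fold), against 0.08 over all genes. Scaled by library totals alone it was 3.37, against 1.12 over all genes, with 7668 genes called higher and 1169 lower in place of 3832 and 3311. Single members were then higher by 1 to 1.07, and without juvenile replicate 1 *Cdc6* stood at 5.06 and without replicate 3 *Gins2* at 4.19. This comparison and the previous one share the 4 juvenile libraries, so their values are given side by side and not as independent results. *Mcm5* stood at 123 and 118 CPM (3.41 log2 units over juvenile, beside 3.39 with *c-Myc* alone). *Dna2* was at 18.4 and 18.3 CPM (3.70 beside 3.73). *Cdc6* was at 15.7 and 14.6 CPM (3.66 beside 3.64) and *Pole* at 49.4 and 49.3 CPM (3.06 beside 2.86). *Orc4*, at 10.3 and 10.2 CPM, passed here (log2 fold change 0.80, SE 0.27, adjusted p = 0.0238, edgeR). *Gins3* at 2.84 and 2.23 CPM (log2 fold change 0.67, SE 0.59, adjusted p = 0.358) and *Rpa3* at 5.13 and 5.01 CPM (log2 fold change 0.76, SE 0.40, adjusted p = 0.122) again did not.

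The other members described above gave these values in the *c-Myc* + *R172H* libraries, each followed by its log2 fold change over juvenile osteoblasts. In origin licensing *Orc1* was at 6.27 and 4.52 CPM (2.91), *Mcmbp* at 50.4 and 49.4 CPM (1.04) and *Mcm4* at 58 and 60.5 CPM (2.96). Of the firing and activation genes, *Cdc7* was at 9.8 and 7.64 CPM (2.80), *Dbf4* at 15.2 and 15.5 CPM (1.97) and *Mcm10* at 30.4 and 30.0 CPM (3.66), with the related helicase *Mcm8* at 6.64 and 5.31 CPM (2.08). In each of these 7 members both libraries lay above all 8 control libraries. The share of all genes above all 8 controls was not counted, here or for the genes below. Above the juvenile libraries alone it was 36.6%. Among polymerase subunits *Pola1* was at 38.4 and 36.9 CPM (3.43), *Prim2* at 10.7 and 9.93 CPM (1.40), *Pold1* at 50.9 and 53.3 CPM (2.59) and *Pole3* at 33 and 30.9 CPM (0.67). Of the clamp loader and RPA genes, *Rfc5* was at 26.2 and 20.7 CPM (2.45), *Rfc3* at 10.9 and 8.54 CPM (1.03) and *Rpa2* at 31.4 and 30.8 CPM (2.15). These polymerase, loader and RPA genes were likewise above every control library. Among the processing, fork protection and assembly genes, *Rnaseh2a* was at 29.2 and 30.6 CPM (1.68), *Timeless* at 43 and 39.3 CPM (1.94), *Tipin* at 15.7 and 13.4 CPM (1.51), *Chaf1a* at 59.6 and 53.9 CPM (2.94) and *Chaf1b* at 17.8 and 18.7 CPM (2.90), again above every control library.

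*Pold4* was at 2.01 and 1.94 CPM in the *c-Myc* + *R172H* libraries, above both *c-Myc* libraries and below all 8 controls. Against juvenile osteoblasts it was called lower (log2 fold change -1.42, SE 0.40, adjusted p = 0.00881, edgeR), a call that was lost when either *c-Myc* + *R172H* library was left out and under library totals.

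Adding *R172H* to *c-Myc* gave no member that passed the test. With edgeR in the fit of 8 libraries, 0 of 55 members were called in *c-Myc* + *R172H* over *c-Myc* osteoblasts, and 0 had an unadjusted p below 0.05 (4.68% of all genes did). DESeq2 called 0 as well, with no adjusted p for 18 members. Over all genes 0.00794% were called higher (1 gene) and 0.461% lower (58 genes), so this comparison made few calls of any kind. The members' log2 fold changes ran from -0.25 (*Orc5*) to 0.54 (*Pold4*), 51 of 55 lay within 0.25 of 0, and the median was 0.08, against 0.00 over all genes, while the SEs ran from 0.14 (*Cdt1*) to 0.72 (*Cdc6*). No member was thus estimated to change by 2-fold, although for genes with the wider SEs such a change lies inside the error. Point estimates were higher with *R172H* for 36 members and lower for 19, against 6196 and 6386 of all 12588 genes. Both *c-Myc* + *R172H* libraries lay above both *c-Myc* ones for 15 members and below them for 2, against 2204 and 3462 of all genes. This lean was not tested. *Pold4* was at 1.19 and 1.59 CPM without and 2.01 and 1.94 CPM with *R172H* (log2 fold change 0.54, SE 0.45, adjusted p = 1). *Lig1* was at 48 and 43.2 CPM without and 53.2 and 58.5 CPM with *R172H* (log2 fold change 0.32, SE 0.17, adjusted p = 1), and was called higher when only these 4 libraries were fitted (0.33, adjusted p = 0.0135). *Cdkn1a*, which encodes p21 and was picked as the classical p53 target, was not called either. It stood at 191 and 197 CPM in the *c-Myc* and at 137 and 142 CPM in the *c-Myc* + *R172H* libraries (log2 fold change -0.45, adjusted p = 0.171, edgeR). The paper, which used DESeq2, reports from its RNA-seq that *p21* was reduced in *c-Myc* + *R172H* osteoblasts, the same direction as these values.

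Another 30 genes of the replication pathway were listed beside the members, including further loaders, firing factors, nucleases and S-phase cyclins. In juvenile over adult osteoblasts 26 were tested and 0 were called by edgeR in either direction, with 0 at an unadjusted p below 0.05. In *c-Myc* over juvenile osteoblasts 24 rose, 1 fell (*Mcm9*, a helicase of homologous recombination, -0.75 with adjusted p = 0.0426) and 5 were not called (*Donson*, *Dscc1*, *Chtf8*, *Top2b* and *Smarcal1*), with a median of 1.85. *Exo1*, a nuclease of mismatch repair and resection, had the largest value at 4.23, and *Lrr1*, *Recql4*, *Asf1b*, *Ccne1*, *Ccna2*, *Chtf18* and *Dtl* lay between 3.10 and 3.45. In *c-Myc* + *R172H* over juvenile osteoblasts 27 rose and 0 fell with a median of 1.82, and in *c-Myc* + *R172H* over *c-Myc* 0 were called by edgeR, with 0 at an unadjusted p below 0.05.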

How the data were processed

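mGFP+ CD31-CD45-TER119- cells of the metaphysis were sorted, and RNA-seq libraries were made with a directional kit and read single-end. Per the labels and the paper's methods, the authors used cutadapt 4.6 for trimming, STAR 2.7.11a for alignment to mm10 and HTSeq 2.0.5 for counting per gene, and deposited raw counts without normalisation. The alignment and the counting name different GENCODE releases, and the strand setting of the counting is not given in the sources used here, so members that overlap another gene's exons (18 on the opposite strand, 6 on the same) are uncertain.

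Libraries were grouped by title. The counts of every replicate pair differed by more than sampling noise (chi-square per degree of freedom 5.75 to 147). Differential expression was tested by edgeR 4.0.16 under R 4.3.3 (TMM, filterByExpr with a minimum count of 10, robust quasi-likelihood F test, Benjamini-Hochberg adjustment over all genes tested, threshold 0.05). The age fit used 8 libraries, and 1 fit of the juvenile and induced libraries gave the other comparisons. The SE was approximated from the fold change and its F value (absolute log2 fold change over root F). Age fold changes are juvenile over adult. CPM were scaled over all 12 libraries, and per-length levels divide CPM by merged GENCODE exons of GRCm38. Promoter windows are RefSeq's. The procedure was tested on simulated counts.

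The members, marker lists (osteoblast, chondrocyte, erythroid, leukocyte and myeloid, endothelial, osteoclast, marrow stroma, proliferation) and the list of other pathway genes were chosen with earlier results of these data known. Values in every library are given for members not called or called lower with *c-Myc*, for the largest and smallest change in each role of 3 or more, and for members of smaller roles. *Lig1*, *Mcm7* and *Gins1* and the *Pold4* promoter were added after their values were seen. Alternatives were RLE and upper-quartile factors, library totals, no filter, at least 10 counts in every library, DESeq2 1.42.0, other libraries in the fit, a replicate block and each library left out.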

Additional observations from a re-analysis of the deposited data

Results flagged for a closer look

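Within the groups of 4 libraries, 1 library stood apart from the other 3 for 5 of the 110 member and group combinations examined, by a gap test that flags about 1 in 20 combinations by chance. Among juvenile libraries, replicate 4 was low for *Mcm3* (4.22 CPM, the nearest other library at 10.99 CPM) and *Fen1* (7.33 CPM, nearest 8.90 CPM), and replicate 1 was high for *Rfc5* (7.76 CPM, nearest 3.35 CPM). Among adult libraries, replicate 1 was high for *Mcm3* (15.9 CPM, nearest 8.02 CPM) and replicate 2 low for *Mcm4* (5.42 CPM, nearest 11.1 CPM).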

How the results depend on the processing

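Scaling by library totals moved the median log2 fold change of the members to -0.25 for juvenile over adult (all genes -0.24), to 3.04 for *c-Myc* over juvenile (all genes 0.87), to 3.37 for *c-Myc* + *R172H* over juvenile (all genes 1.12, with 0 members called lower) and to 0.29 for *c-Myc* + *R172H* over *c-Myc* (all genes 0.21). In juvenile over adult, 1 member (*Orc1*) was called higher by DESeq2 and 1 (*Orc1*) by the fit of all 12 libraries, which also called 1 lower (*Mcm7*). The fit of the 4 induced libraries alone called 1 member higher with *R172H* (*Lig1*). With a juvenile library left out, 50 to 53 members were called higher in *c-Myc* over juvenile (28.2% to 29.9% of all genes, member median 2.13 to 2.31). In *c-Myc* + *R172H* over juvenile 52 were (30% to 31.8% of all genes), and 1 was called lower in each comparison. With 1 library of the induced group left out, the median was 2.16 and 2.34 for *c-Myc* over juvenile. It was 2.26 and 2.40 for *c-Myc* + *R172H* over juvenile, where a lone library is assumed to vary like the others. No member called in a comparison changed direction in it. Over all genes, library totals moved the calls for juvenile over adult from 214 higher and 367 lower to 53 and 793, and for *c-Myc* + *R172H* over juvenile from 3832 and 3311 to 7668 and 1169. For *c-Myc* + *R172H* over *c-Myc* the 1 higher and 58 lower genes became 1 and 11 with library totals, 14 and 208 without the filter, 6 and 195 by DESeq2, 189 and 440 in the fit of the 4 induced libraries alone, 30 and 296 with the replicate block, 0 and 22 in the fit of all 12 libraries, and 0 to 3 and 7 to 84 with a library left out. For juvenile over adult, other counts were 399 and 578 without the filter, 319 and 616 by DESeq2, 461 and 633 with all 12 libraries, and 85 to 344 and 199 to 541 with a library left out. The sources do not say that replicate numbers pair libraries. Replicates are numbered by title, and the names of the adult libraries carry other numbers. A pairing of juvenile and adult libraries by library name could thus not be seen in the correlations or with the block. Correlations of same-numbered deviations ran from -0.05 to 0.04 in the 4 juvenile and adult pairs, with 1 of 4 closest to its own number, and were 0.14 in both *c-Myc* and *c-Myc* + *R172H* pairs, which with 2 libraries a group is a single value, and where *Xist* was high in replicate 2 of both groups. The fits had no block. With a replicate block 54 members were called higher and 1 lower in *c-Myc* over juvenile (4044 and 3640 of all 12588 genes). In *c-Myc* + *R172H* over juvenile 53 and 1 were (4267 and 3731 of all genes), and 0 in the other comparisons. Induced groups have 2 libraries each, and members at a few counts in control libraries have wide errors.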
